A study of Medicago truncatula with 6 samples.

Results

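The gene set described here holds 10 *M. truncatula* genes of root nodule symbiosis among the 50443 genes of the deposited expression table. They comprise 3 transcription factors (NIN, NF-YA1 and ERN1), 3 genes of bacterial infection (NPL, RPG and LIN), the receptor kinase SUNN, and 3 genes annotated as nodulins or as Nod factor binding (Medtr4g087100, Medtr7g085120 and Medtr4g113820). Each ID carries its chromosome number after the prefix Medtr, and the deposited table gives a gene length but no start or end. The first 7 were chosen by gene ID for their known role. The deposited table holds IDs without names, so these 7 names come from general knowledge of the species. The last 3 were selected from the study's own list of genes changed by w5, that is, on the same root libraries and the same contrast. Differences between the groups are therefore given as a description for all 10 genes, with their error and without a p-value, and counts of genes past a threshold are given only beside those of all genes.

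Roots of *M. truncatula* A17 grown with *Gongronella* sp. w5 (w5), a soil fungus of the Mucoromycotina, were compared with roots of plants grown alone (controls), in 3 biological replicates per group. Seedlings stood on agar of the sugar-free MSR medium, and for the w5 group a mycelial plug was placed on glucose-containing VI medium in the other part of the plate. Control plants are described as grown alone on MSR medium, without a statement on VI medium in their plates. If it was absent, its presence cannot be told apart from that of w5. Roots in contact with the mycelia were taken at 16 days post-inoculation (dpi). The labels give the time for the w5 group only. The study's methods name no rhizobial inoculation in either group, and the number of plants behind each library is not given in the sources used here. The libraries held between 6547753 and 7539956 counts. The sources used here pair no gene ID with a root or leghemoglobin marker, so the tissue label was not checked against such markers.

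In legumes, rhizobia release lipochitooligosaccharide signals called Nod factors, which root hair receptors perceive. A signalling pathway that is shared with mycorrhizal fungi then activates the transcription factor NIN, and NIN with its partners switches on the genes for infection threads and for division of the root cortex. Nodulins are genes first recognised by their expression in nodules, and many of them are also expressed in other tissues. The number of nodules is limited by a shoot receptor that responds to root peptides.

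The regulators of nodulation showed no shift that exceeded the spread between libraries, while the 3 genes taken from the list of changed genes were at higher levels in every root library with w5. NIN and NPL were at or near 0 in all 6 libraries. Counts were scaled by TMM, and levels are given as CPM, that is, counts per 1e+06 scaled counts of the genes tested. Log2 fold changes, w5 against control, come from the quasi-likelihood fit of edgeR over all 16905 genes that passed its expression filter. The filter kept 7 of the 10 genes and left out NIN, NPL and RPG.

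**Figure D1:**
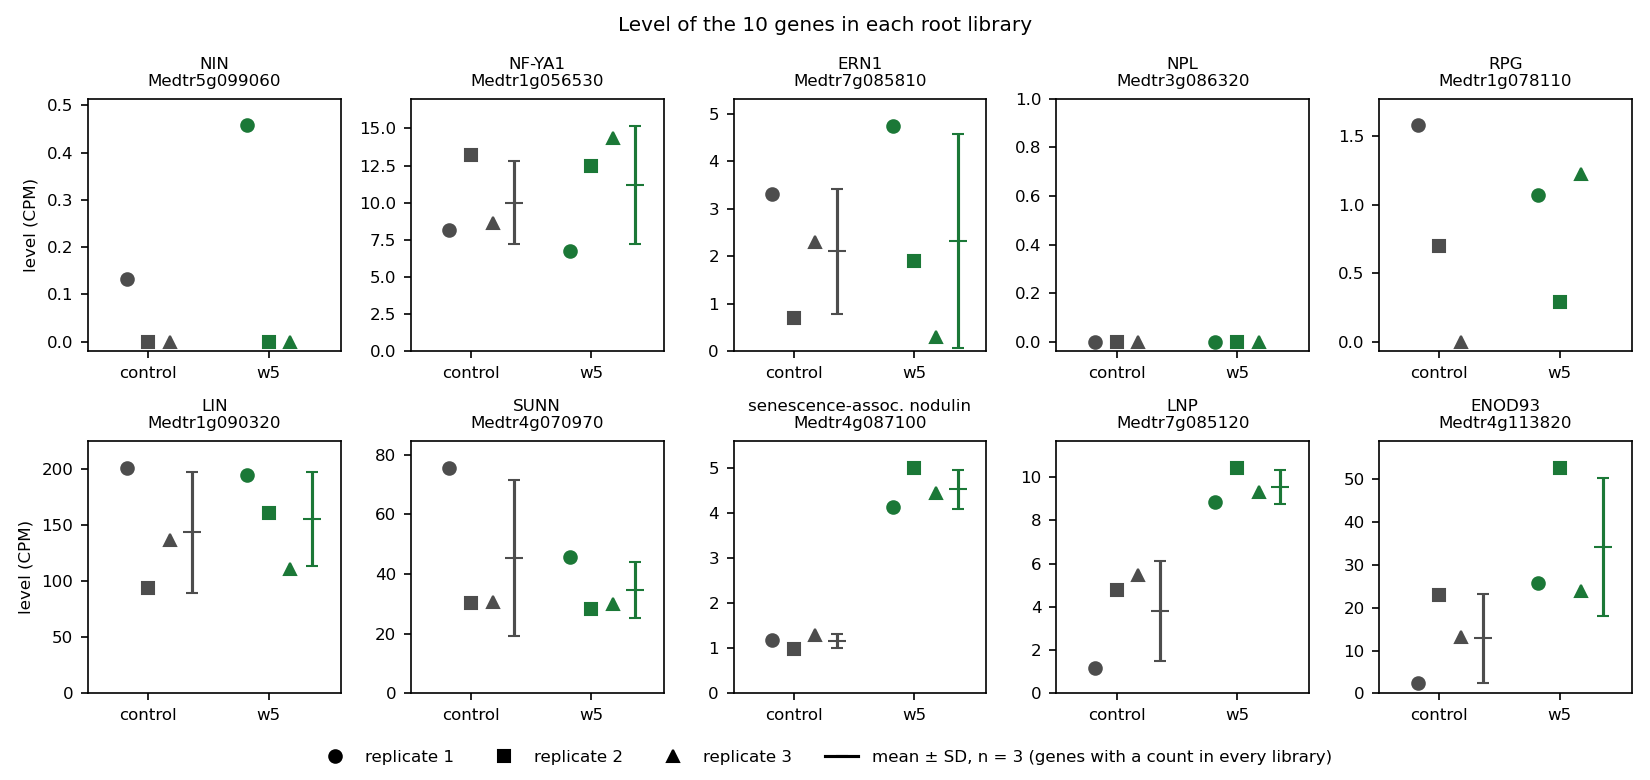
Level of each of the 10 genes in CPM (vertical axes, a separate scale for each gene) in the 3 control and 3 w5 libraries. Points are libraries, with a shape for each replicate number, and bars are mean ± SD. The w5 libraries of Medtr4g087100 lie between 4.13 and 4.99 CPM, above all controls. Those of LIN lie among the controls, and those of SUNN at 28.3, 29.9 and 45.6 CPM lie on both sides of the lowest control at 30.2 CPM.

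NIN (Medtr5g099060) encodes an RWP-RK transcription factor that is required for both infection and nodule formation. It had 1, 0 and 0 counts in the control libraries and 3, 0 and 0 counts in the w5 libraries. All 4 counts fell in the libraries with replicate number 1, and 3 counts in a library correspond to between 0.396 and 0.459 CPM. The ratio of the group sums, w5 over control, was 3.23, with a 95% counting interval of 0.260 to 170. At this depth no difference was detectable. Counting intervals here cover sampling of reads alone.

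NF-YA1 (Medtr1g056530) encodes a subunit of a CCAAT-binding factor that acts downstream of NIN and maintains the nodule meristem. Its level was 8.19, 13.2 and 8.65 CPM in the controls and 6.73, 12.5 and 14.4 CPM with w5. The groups overlapped, and both the lowest and the highest value belonged to the w5 group. Mean levels were 10.01 ± 2.77 CPM in the controls and 11.2 ± 3.98 CPM in the inoculated roots (SD, 3 libraries each). The fitted log2 fold change of 0.16 had a standard error of 0.34, and its 95% interval of -0.61 to 0.93 left out both a doubling and a halving. This holds for the main fit alone. Without w5 replicate 1 the log2 fold change was 0.43 (standard error 0.30).

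ERN1 (Medtr7g085810) encodes an AP2/ERF transcription factor that activates early nodulin genes during infection. It was read 25, 5 and 16 times in the controls and 31, 13 and 2 times with w5. In CPM this was 3.30, 0.702 and 2.31 without w5 and 4.74, 1.91 and 0.306 with w5. The w5 libraries alone spanned a ratio of 15.5 between the highest and the lowest, and they enclosed all 3 controls. The biological coefficient of variation (BCV, the spread between replicates beyond counting error) was 0.669, which was higher than in 98.8% of the genes tested. The log2 fold change of 0.13 (standard error 0.83) had a 95% interval of -1.76 to 2.03, so neither a doubling nor a halving was outside it.

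Of the infection genes, NPL (Medtr3g086320) encodes the pectate lyase that opens the plant cell wall for infection threads. It had no count in any library. A floor of 3 counts corresponds to 0.0720 per 1e+06 counts over the 6 libraries. In a single library, the 95% counting interval of a count of 0 reached 3.69 counts. RPG (Medtr1g078110) encodes a coiled-coil protein that directs the growth of infection threads. The controls held 12, 5 and 0 of its counts and the inoculated roots 7, 2 and 8, so each group came to 17. The ratio of group sums was 1.08, with a 95% counting interval of 0.517 to 2.25.

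LIN (Medtr1g090320) encodes a ubiquitin ligase that infection threads need to progress. It was abundant in both groups, at 201, 93.6 and 136 CPM without w5 and 194, 160 and 111 CPM with w5. The controls spanned the w5 libraries completely. Mean levels were 143 ± 53.8 CPM for controls and 155 ± 41.8 CPM for w5 (SD, 3 libraries each). A log2 fold change of 0.11 (standard error 0.30) was fitted, with a 95% interval of -0.57 to 0.79 that left out both a doubling and a halving. Here, too, the interval is that of the main fit alone. Without control replicate 1 the log2 fold change was 0.45 (standard error 0.27).

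SUNN (Medtr4g070970) encodes a leucine-rich repeat receptor kinase of the autoregulation of nodulation, which acts in the shoot to limit nodule number and is also transcribed in roots. Its level was 75.5, 30.2 and 30.6 CPM without w5 and 45.6, 28.3 and 29.9 CPM with w5. In each group a single library, replicate 1, stood above the other 2, which were close to 30 CPM. Mean levels were 45.4 ± 26.1 CPM for controls and 34.6 ± 9.51 CPM for w5 (SD, 3 libraries each). The fitted log2 fold change of -0.39 had a standard error of 0.38 and a 95% interval of -1.26 to 0.47. Without control replicate 1 it was 0.20, so that library set the sign.

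**Figure D2:**
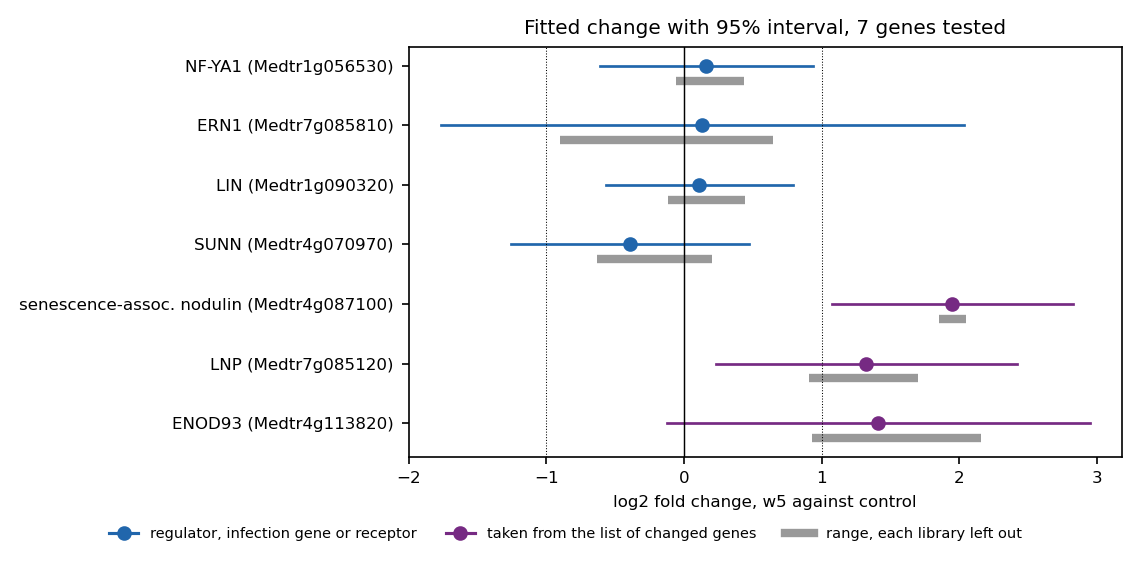
Log2 fold change of w5 against control (horizontal axis) for the 7 genes that passed the expression filter. Points are values fitted by edgeR and lines 95% intervals derived from its test statistic. Blue marks genes chosen by their role and purple genes taken from the list of changed genes, and grey bars give the range when each library was left out. The blue intervals all hold 0, and the grey bar of SUNN reaches from -0.63 to 0.20.

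The 3 genes that were picked from the list of changed genes lay higher with w5, as that choice fixed. Medtr4g087100 is annotated as a senescence-associated nodulin, and its GO terms name a dioxygenase. Control roots gave 9, 7 and 9 counts, inoculated roots 27, 34 and 29. In CPM the controls were 1.19, 0.983 and 1.298 and the w5 libraries 4.13, 4.99 and 4.43. The groups were far apart compared with the spread within them, at 1.16 ± 0.160 CPM for controls and 4.52 ± 0.438 CPM for w5 (SD, 3 libraries each). The fitted log2 fold change of 1.95 had a standard error of 0.39 and a 95% interval of 1.07 to 2.83, and it lay between 1.85 and 2.05 when each library was left out. The gene passed the expression filter through the w5 libraries alone, as no control reached the limit of 1.45 CPM, so a gene with this pattern could enter the test only by being higher with w5.

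Medtr7g085120 is annotated as a Nod factor-binding lectin-nucleotide phosphohydrolase (LNP), an apyrase described at the root surface of another legume, *Dolichos biflorus*. Its level was 1.19, 4.77 and 5.48 CPM without w5 and 8.87, 10.4 and 9.32 CPM with w5. The w5 libraries were close together, and control replicate 1 was well below the other controls. Mean levels were 3.81 ± 2.30 CPM for controls and 9.54 ± 0.801 CPM for w5 (SD, 3 libraries each). The fitted log2 fold change of 1.32 had a standard error of 0.48 and a 95% interval of 0.23 to 2.42. Without control replicate 1 it was 0.91.

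Medtr4g113820 is annotated as an early nodulin of the ENOD93 type, a small membrane protein. Its level was 2.38, 23.0 and 13.1 CPM without w5 and 25.8, 52.6 and 23.8 CPM with w5. The groups did not overlap, but control replicate 2 with 164 counts (95% counting interval 140 to 191) and w5 replicate 3 with 156 counts (132 to 182) nearly met. The controls spanned a ratio of 9.69, and the BCV of 0.560 was higher than in 97.2% of the genes tested. Mean levels were 12.8 ± 10.3 CPM for controls and 34.1 ± 16.0 CPM for w5 (SD, 3 libraries each). The fitted log2 fold change of 1.41 had a standard error of 0.66, and its 95% interval of -0.12 to 2.95 held 0. It was 0.93 without control replicate 1, 0.97 without w5 replicate 2 and 2.16 without control replicate 2.

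Genes were called past the thresholds when the quasi-likelihood test gave p under 0.05 without adjustment and the fitted difference was more than 2-fold. Medtr4g087100 and Medtr7g085120 passed both, and no gene of the set passed in the lower direction. These are 2 of 7 tested genes, where 4.77% of all genes tested passed in either direction, 2.03% in the higher and 2.73% in the lower direction. At an adjusted p under 0.05 none of the 7 passed with edgeR's quasi-likelihood test, where 0.0177% of all genes did, and 2 of the 7 had an unadjusted p under 0.05. With DESeq2 and with edgeR's exact test Medtr4g087100 alone of the set passed at that adjusted p. DESeq2 was fitted to the 25377 genes with any count, of which 540 passed. With the exact test 529 of 16905 genes did. With limma-voom none of the set did, where 3 of 16905 genes did. The genes that passed were chosen on this contrast, and Medtr4g087100 entered the test through its w5 libraries alone, so nothing is read from any of these counts. The 95% interval held 0 in 5 of the 7 genes, and it left out 0 in 11.1% of all genes tested. In 3 genes of the set every w5 library lay above every control, and these are the 3 genes chosen from the list. In no gene of the set did every w5 library lie below every control. Over all genes tested, 7.02% had all w5 libraries above, 9.04% had all below and 16.1% had groups that did not overlap in either direction. The 4 tested genes that were chosen by their role had a median log2 fold change of 0.12, beside -0.01 over all genes tested.

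**Figure D3:**
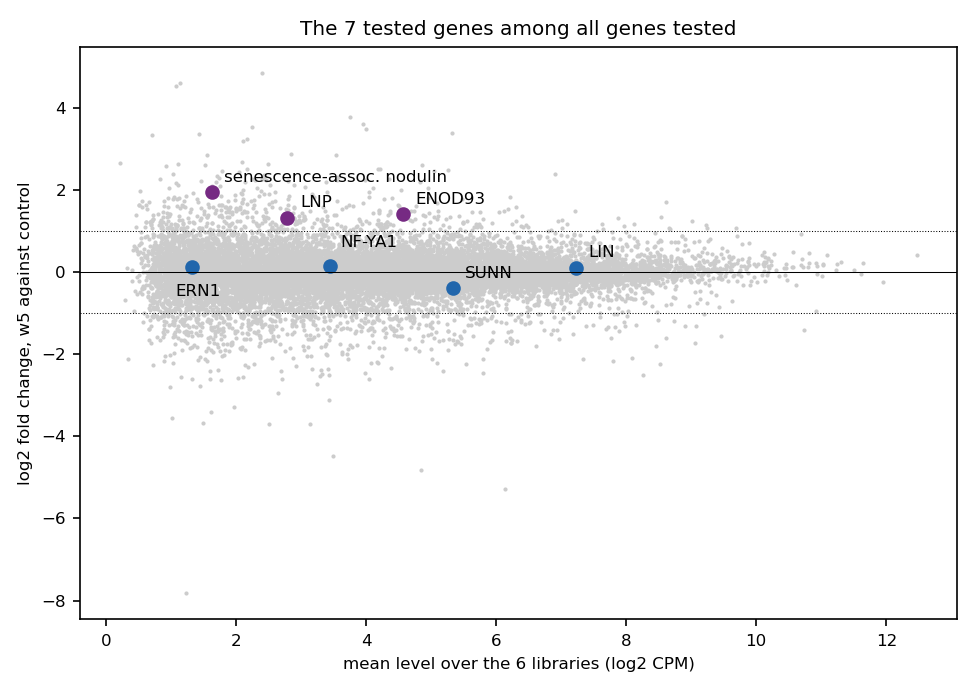
Log2 fold change of w5 against control (vertical axis) against mean level in log2 CPM (horizontal axis) for all 16905 genes tested, in grey. The 4 genes chosen by their role (blue) lie between -0.39 and 0.16 inside the bulk of the grey points, and the 3 genes taken from the list of changed genes (purple) lie between 1.32 and 1.95. Dotted lines mark log2 fold changes of -1 and 1.

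Replicate 1 stood at the same end of both groups for several of these genes. Among the 3 libraries of its group, replicate 1 was highest in both groups for ERN1, LIN and SUNN and lowest in both groups for NF-YA1 and Medtr7g085120. This makes 5 of the 7 tested genes, where 28.6% of all genes tested had replicate 1 at the same end of both groups. For replicate 2 it was 2 of 7 (ENOD93 highest, SUNN lowest) against 15.9% of all genes tested, and for replicate 3 it was 0 of 7 against 19.6%. The 2 libraries with replicate number 1 also held every NIN count. The labels do not say that a replicate number marks a shared plate or day. Libraries also differed in the mean length of the gene behind a count, which was 2795, 2502 and 2748 bases without w5 and 2586, 2743 and 2605 bases with w5. The groups overlapped in this measure, and its part in the values above was not tested.

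Levels of different genes can be compared only per gene length, as FPKM, which the authors calculated from the counts. On that scale ENOD93 had a median over the 6 libraries of 32.3 FPKM and LIN of 26.0 FPKM. ENOD93 was above LIN in 4 of 6 libraries, namely every w5 library and control replicate 2. The order of this pair therefore did not hold across libraries. Mean levels were 17.9 FPKM for ENOD93 and 25.3 FPKM for LIN in the controls, and 47.1 and 27.2 FPKM with w5. LIN was above SUNN (median 9.97 FPKM) in 6 of 6 libraries. SUNN in turn was above NF-YA1 (5.70 FPKM) in 6 of 6 libraries, and NF-YA1 was above Medtr7g085120 (4.39 FPKM) in 5 of 6. Medtr7g085120 and ERN1 (2.69 FPKM) were not separated in every library (4 of 6), and neither were ERN1 and Medtr4g087100 (1.87 FPKM, also 4 of 6). ERN1 was above Medtr4g087100 in every control and in w5 replicate 1. Medtr4g087100 was above RPG (0.378 FPKM) in 6 of 6 libraries. NIN and NPL had a median of 0 FPKM. Against the 25377 genes with any count, the mean FPKM of ENOD93 was higher than that of 85.6%, LIN of 82.4%, SUNN of 70.5%, NF-YA1 of 56.1%, ERN1 of 46.1% and NIN of 3.97%. Among the 3 infection genes, LIN was thus in the upper part of root expression, RPG in the lower part, and NPL was not detected at this depth.

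**Figure D4:**
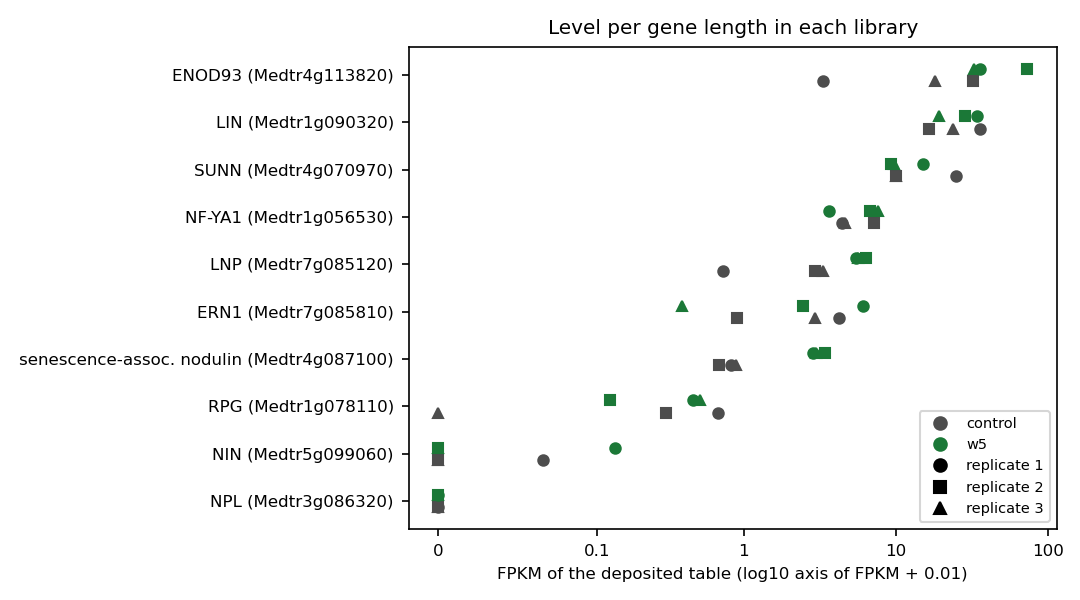
FPKM of the 10 genes (horizontal axis, logarithmic after adding 0.01) in each library, with control libraries in grey, w5 libraries in green and a shape for each replicate number. Genes are ordered by mean FPKM from ENOD93 at the top to NPL at 0. LIN and SUNN keep their order in all 6 libraries, while ENOD93 ranges from 3.32 to 72.9 FPKM.

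No wider list of nodulation genes could be drawn from the sources used here, as only the study's list of changed genes pairs these IDs with descriptions. Apart from the genes above, it held 2 genes with a nodulin name, Medtr1g074020 and Medtr3g072560. Both are annotated as nodulin MtN21/EamA-like transporters, a family that also works outside nodules. For Medtr1g074020 the controls gave 8, 16 and 3 counts, and the inoculated roots 0, 1 and 0. The ratio of group sums, control over w5, was 25.04, with a 95% counting interval of 4.13 to 1025. Medtr3g072560 had no count in the 3 controls and 9, 0 and 9 counts with w5. Against a floor of 3 counts over the control group, its summed w5 level was 6.47-fold higher, which leaves out the counting error of that sum. The 95% counting interval of the ratio of control over w5 was 0 to 0.211. In w5 replicate 2 there was no count either. Neither gene passed the expression filter, and both were chosen on this contrast, so these values are a description.

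Within the study's list of changed genes, transcripts of green tissue were lower with w5 in the same roots. The list names 41 genes of the photosystems, of light harvesting or of the small subunit of rubisco, all with counts in these roots. Of these, 39 were tested, and all 39 passed the thresholds in the lower direction, where 2.73% of all genes tested did. The summed level of the 41 genes was 5089 to 9438 CPM in the control libraries and 2553 to 3354 CPM with w5, without overlap. These genes, too, were chosen on this contrast, so nothing is read from that difference. In control replicate 1, which was highest for LIN and SUNN and lowest for ENOD93 and Medtr7g085120, the sum was 8487 CPM, between the other 2 controls. The part of these transcripts in the values above was not tested. In whole roots, fewer cells of a type and less RNA per cell cannot be told apart.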

How the data were processed

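The authors deposited whole read counts per gene for 6 root libraries, 3 without and 3 with w5, and FPKM that they derived from these counts, the gene length and the library total, which was checked in 131099 values. According to the methods, paired-end libraries from a stranded total RNA kit were set against a genome database of *M. truncatula*. The submitters' processing notes list Bowtie 0.12.2 along with mm8, which is a mouse build. How reads were counted, with which strand setting and on which annotation, is not given in the sources used here. Reads of close paralogs or of antisense genes may therefore be shared.

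Genes were filtered by edgeR's filterByExpr (10 counts at the median library size in at least 3 libraries), scaled by TMM and fitted with the robust quasi-likelihood test (edgeR 4.0.16, R 4.3.3) with condition as the only term. P-values were adjusted by Benjamini-Hochberg over 16905 genes. Intervals of counts are exact Poisson and those of ratios exact conditional binomial. The quasi-likelihood test returns no standard error. It was derived here as the absolute log2 fold change over the square root of the F statistic. The intervals of log2 fold changes use it with the t distribution. A floor of 3 counts corresponds to 0.396 to 0.459 CPM per library. Replicates of a group differed beyond counting noise (chi-square per gene 9.29 to 29.4). The quasi-likelihood p-values set the difference between groups against the spread between these libraries, which edgeR moderates across genes. Alternatives used DESeq2 1.42.0, limma-voom 3.58.1, edgeR's exact test, 3 other scalings, 2 other filters, a replicate block and each library left out. The procedure was also run on simulated counts, with the spread that edgeR fits to each level of expression. The spread of single genes, such as ERN1 and ENOD93, was not part of that simulation.

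The genes and lists were chosen with earlier results of these data known. Named genes are the 10 members and up to 3 other nodulation genes in each direction. The genes most like NIN in pattern, also foreseen, were not sought because NIN had 4 counts. A list of nodulation, leghemoglobin and endodermis genes by reference annotation was foreseen, but the reference table at hand carries no descriptions and pairs none of these IDs with a name. No sequences are printed, as no sequence table was at hand.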

Additional observations from a re-analysis of the deposited data

How the results depend on the processing

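The direction of the 3 genes taken from the list of changed genes was kept under all 15 alternatives. Medtr4g087100 passed both thresholds in all of them. All 3 genes were chosen on this contrast and these libraries, so nothing is read from this stability. Medtr7g085120 did not pass without control replicate 1 or w5 replicate 2. The number of genes of the set past the thresholds lay between 1 and 3 when each library was left out, with 1 in each of those 2 fits and 3 without control replicate 2. Over all genes tested, 806 passed in the main fit and between 817 and 1067 when each library was left out. It was 860 and 854 in those 2 fits. ENOD93 passed in 4 alternatives, which were limma-voom, edgeR's exact test, the replicate block and the fit without control replicate 2. In the first 3 of these, 809, 872 and 849 of 16905 genes passed. Without control replicate 2 it was 955 of the genes tested in that fit. Of the genes chosen by their role, NF-YA1, ERN1, LIN and SUNN were fitted in all 15 alternatives and passed in none. RPG was fitted in 3 and NIN in 2, without passing, and NPL in none. The log2 fold change changed sign in at least 1 alternative for NF-YA1 (-0.06 to 0.43), ERN1 (-0.90 to 0.65), LIN (-0.11 to 0.45) and SUNN (-0.63 to 0.20). Among the 3 other scalings, the largest shift in a log2 fold change of the set was 0.0149.

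Over all genes tested, 3 reached an adjusted p under 0.05 in the main test, 195 with no filter, 540 with DESeq2, 529 with edgeR's exact test, and between 1 and 103 when each library was left out. With the replicate number as a block it was 176. ENOD93 then had a log2 fold change of 1.68 with a standard error of 0.46, against 0.66 in the main fit. Libraries with the same number deviated together for replicate 1 (correlation 0.24) but not for replicates 2 and 3 (-0.07 and -0.03). These values do not settle whether the numbers pair the samples, and the main fit left the numbers out. Both MtN21/EamA-like genes, that is 2, passed the thresholds with no filter and with DESeq2, which keep genes of low counts. In these fits 1170 and 1033 of all genes with a count passed. Both genes were chosen on this contrast, so nothing is read from these calls. The causes were not tested. Depth limits NIN, NPL and RPG, which had 4, 0 and 34 counts in all.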
